A study of Mus musculus with 62 samples.

Results

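The regions described here were H3K27ac peaks that the diaphragm (Dia) and the extensor digitorum longus (EDL) had in common. A Dia peak and an EDL peak were paired where each covered at least 50% of the other, with each peak used once. This gave 19578 shared regions, which is 59.1% of the 33106 H3K27ac regions listed for Dia and 54.8% of the 35750 listed for EDL. The study profiled histone marks, open chromatin and factor binding in 62 mouse muscle libraries, of which 4 enter the comparison: 2 H3K27ac chromatin immunoprecipitation sequencing (ChIP-seq) libraries of Dia and 2 of EDL. All 4 came from sedentary wild-type mice, of strain C57BL/6 in the labels and C57BL/6J in the study's methods. The mice of the study were young adult males, and muscles of several animals were pooled for each Dia and each EDL sample, so that the libraries stand for pools of whole muscle and not for single animals or fibers. Each muscle had 1 input library, made from chromatin without antibody.

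Acetylation of histone H3 at lysine 27 marks active promoters and enhancers, and its level along the genome follows which regulatory elements a tissue uses. EDL is a limb muscle made almost wholly of fast, glycolytic fibers, which contract quickly and rely on glycogen. Dia, the breathing muscle, works without rest, holds a mixture of slow and fast oxidative fibers, and burns fatty acids. Its surfaces are covered by mesothelium, and like every whole muscle it contains vessels, connective tissue, nerve and immune cells. In bulk chromatin of this kind, fewer cells of a type and less acetylation per cell cannot be told apart.

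Levels are given on a log2 scale, as the deposited log2 tag value of a library minus log2 of the peak width in kb, minus the median of that library over the shared regions. A level of 0 is thus that of a typical shared region, and a difference of 1 is 2-fold. The 2 muscles were normalized separately by the authors, so the values are compared as descriptions, with no test and no p-value. A region was called higher in a muscle where the means differed by over 1 and the 2 libraries of that muscle both lay above the 2 of the other. By this rule 218 regions were higher in Dia, which is 1.11% of the shared regions, and 386 were higher in EDL, which is 1.97%. All 604 regions whose means differed over 2-fold also had libraries that did not overlap. Without regard to size, both Dia libraries lay above both EDL libraries at 32.8% of the regions, and both EDL libraries lay above both Dia libraries at 28%.

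Called regions described below as higher in Dia include those near Hoxc4, Tbc1d4, Esrrb, Esrrg and Hadh. Those described as higher in EDL include regions near Rxrg, Bcl6, Ucp3, Nrip1, Slc16a3 and Actn3. The sequences of 7 called regions are shown: the 3 largest differences in each direction, and the largest at Hadh, chosen after the values were seen. Each is 200 bases of the plus strand of GRCm38.p6, the RefSeq release of mm10, taken at the centre of an overlapping open chromatin (ATAC-seq) peak of quadriceps (Quad) where there was one and otherwise at the centre of the stretch shared by the peaks. Capitals mark any of 11 short words bound by muscle factors, on either strand. The windows are Hoxc4 chr15:103060428-103060627, Tbc1d4 chr14:101573170-101573369, Hadh chr3:131256682-131256881 and Esrrb chr12:86372038-86372237 for Dia, and Rxrg chr1:167588901-167589100, Bcl6 chr16:24097711-24097910 and Dlg1 chr16:31626403-31626602 for EDL.
Hoxc4: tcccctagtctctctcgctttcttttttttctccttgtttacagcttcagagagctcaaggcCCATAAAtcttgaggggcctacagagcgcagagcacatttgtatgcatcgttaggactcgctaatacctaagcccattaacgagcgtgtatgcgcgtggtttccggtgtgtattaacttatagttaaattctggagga
Tbc1d4: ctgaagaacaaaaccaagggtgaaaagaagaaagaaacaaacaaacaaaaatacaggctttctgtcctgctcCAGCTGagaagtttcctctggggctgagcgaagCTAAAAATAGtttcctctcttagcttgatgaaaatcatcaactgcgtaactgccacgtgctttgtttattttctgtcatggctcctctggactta
Hadh: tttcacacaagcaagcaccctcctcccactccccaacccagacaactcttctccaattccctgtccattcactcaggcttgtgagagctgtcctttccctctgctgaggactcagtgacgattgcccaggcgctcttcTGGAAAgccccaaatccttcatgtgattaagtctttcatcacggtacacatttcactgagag
Esrrb: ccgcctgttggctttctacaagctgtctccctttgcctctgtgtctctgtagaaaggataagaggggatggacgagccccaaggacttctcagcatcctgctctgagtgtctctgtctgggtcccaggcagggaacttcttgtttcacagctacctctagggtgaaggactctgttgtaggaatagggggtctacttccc
Rxrg: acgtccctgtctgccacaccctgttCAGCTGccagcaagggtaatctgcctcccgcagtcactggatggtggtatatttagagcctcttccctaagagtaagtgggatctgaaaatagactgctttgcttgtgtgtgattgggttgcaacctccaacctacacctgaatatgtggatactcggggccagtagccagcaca
Bcl6: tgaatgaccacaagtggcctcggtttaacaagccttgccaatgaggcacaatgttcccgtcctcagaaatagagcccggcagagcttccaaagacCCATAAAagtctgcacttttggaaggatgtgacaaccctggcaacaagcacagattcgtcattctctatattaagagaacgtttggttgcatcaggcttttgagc
Dlg1: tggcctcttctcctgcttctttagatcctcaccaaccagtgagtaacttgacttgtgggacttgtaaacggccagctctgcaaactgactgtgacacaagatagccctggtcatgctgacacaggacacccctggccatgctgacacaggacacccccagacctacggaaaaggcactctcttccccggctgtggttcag
The Tbc1d4 window holds a myocyte enhancer factor 2 (MEF2) site and the myogenic E-box CAGCTG, and the Rxrg window holds the same E-box. The Hoxc4 and Bcl6 windows each hold TTTATGG, read on the minus strand, a word of posterior HOX proteins. The Hadh window holds the NFAT core TGGAAA. None of the 11 words is in the Esrrb or Dlg1 window.

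The largest difference in either direction was at an intergenic region 26062 bases downstream of the start of Hoxc4, a gene of anterior and trunk position (chr15:103058256-103062658 in the Dia list). Its levels were 1.07 and 1.06 in Dia and -1.44 and -1.62 in EDL, a difference of 2.59, or 6.03-fold. The Dia replicates lay together well above the typical region and the EDL replicates well below it. The second was in intron 1 of 18 of Tbc1d4, which encodes a Rab GTPase-activating protein that insulin and contraction signals act on to release the glucose transporter to the cell surface (chr14:101572242-101574177). Dia levels were 0.92 and 0.91, against -0.996 and -1.53 in EDL. The third was in intron 1 of 6 of Esrrb, one of the estrogen-related receptors, nuclear receptors that switch on mitochondrial and fatty acid oxidation genes (chr12:86370605-86373424). Dia levels there were 0.45 and 0.10 and EDL levels -1.35 and -2.25, so the muscles did not overlap although the EDL replicates lay far apart. The input value also differed in the same direction, by 1.07 at the Hoxc4 region, 0.72 at the Tbc1d4 region and 2.11 at the Esrrb region. Taken over input, the Esrrb difference was -0.06, a measure whose limit is given below.

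The other regions among the 12 with the largest differences lay nearest to Edem3, Zfp827, Dhrs4, Lrg1, Rhou, Cyp7a1, Rasgef1b, Rreb1 and Dtnbp1, with differences from 1.58 to 1.93. Most lay far from the start of the named gene. The Edem3 region, for instance, was in intron 5 of Niban1, 78204 bases upstream of Edem3, and a second region in the same intron, 83414 bases upstream, was also called, with levels of 0.62 and 0.13 in Dia and -1.35 and -1.24 in EDL. Neighboring calls also fell at Itga11, which encodes a collagen-binding integrin subunit of fibroblasts: 3 of its 5 shared regions were called higher in Dia, by 1.105 to 1.58. At Arhgef3, 2 of 9 regions were called and 8 had both Dia libraries on top. Myom3, a gene of the sarcomere M-band found in slow and intermediate fibers, had 2 of 4 regions called. The Myom3 region 445 bases inside the gene had levels of 0.91 and 0.96 in Dia and -0.10 and -0.24 in EDL.

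Of the regions higher in EDL, the largest difference lay 9397 bases upstream of Rxrg, the retinoid X receptor gamma, a nuclear receptor abundant in skeletal muscle (chr1:167588451-167589479 in the Dia list). Its levels were -1.69 and -2.78 in Dia and 0.28 and -0.10 in EDL, a difference of -2.33. A region 107 bases inside Rxrg differed by -0.87, with 0.09 and 0.29 in Dia and 1.17 and 0.96 in EDL. Both EDL libraries were thus on top there as well, below the 2-fold limit. Bcl6, a transcriptional repressor, was the nearest gene to the next region, 108829 bases upstream (chr16:24095502-24099380), where Dia had -0.82 and -0.72 and EDL 1.55 and 1.51. A second Bcl6 region, 177185 bases upstream, differed by -1.49. The region near Dlg1, which encodes a scaffold protein of cell contacts and synapses, had -1.89 and -1.87 in Dia and 0.09 and 0.24 in EDL (chr16:31625808-31627156). The input value differed in the same direction at these largest differences, by -1.43 at Rxrg, -0.72 at the first Bcl6 region and -1.43 at Dlg1.

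A called region had Ucp3, a mitochondrial carrier of fast muscle, as its nearest gene, but lay in intron 24 of C2cd3, 34126 bases upstream. Dia levels were -1.88 and -1.39 and EDL levels 0.15 and 0.38, and the input differed by -1.32. Another Ucp3 region, 4356 bases upstream, leaned to Dia and was not called, and the 2 regions had a median difference of -0.74. Nrip1, a corepressor of nuclear receptors that restrains oxidative genes, had a region 34733 bases upstream with -0.32 and -1.08 in Dia and 1.30 and 0.89 in EDL. The remaining regions of the 12 lay nearest to Cdc14b, 1700027J07Rik, Mrvi1, Ctxn3, Cdc7, Eda2r and Slc25a30, with differences from -1.81 to -2.04. Clvs1 had the most calls, 3 of 5 shared regions at -1.09 to -1.33, the closest of them 173489 bases upstream of it. Acsl6, a long-chain acyl-CoA synthetase, had both of its 2 shared regions called, at -1.54 and -1.67. The calls at Ncoa1, a nuclear receptor coactivator, were 2 of 3 regions, at -1.13 and -1.75.

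**Figure D1:**
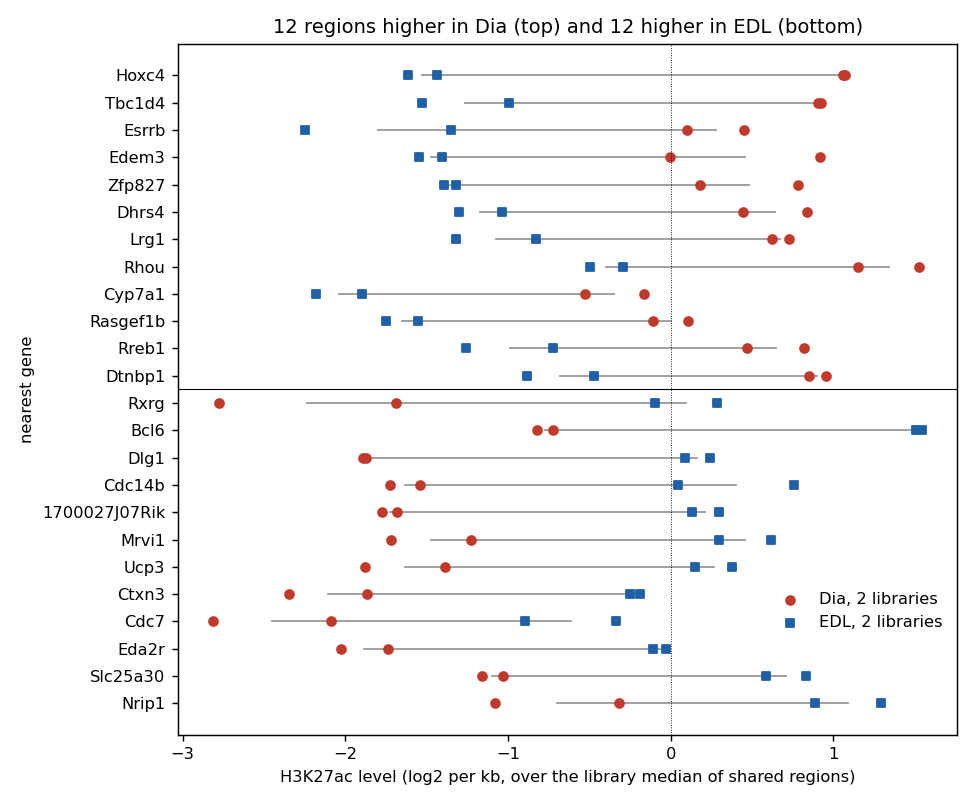
H3K27ac level (x axis, log2 per kb over the library median of the shared regions) in each library for the 12 largest differences in each direction, 1 region per nearest gene (y axis). Circles are the 2 Dia libraries, squares the 2 EDL libraries, and the gray line joins the group means. The groups do not overlap in any row, which the call rule requires.

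Called regions were spread over many genes and were mostly distal. The 218 regions higher in Dia had 205 nearest genes and the 386 higher in EDL had 366, of which 5 genes had calls in both directions. Of all shared regions, 18.9% were promoter regions (from 1000 bases upstream to 100 bases downstream of a transcription start), but only 5.96% of the regions higher in Dia and 3.37% of those higher in EDL were. Among promoter regions, 0.352% were called in each direction. Among intergenic regions, 1.52% were called higher in Dia and 2.64% higher in EDL. The median distance from the nearest start was 18317 bases for regions higher in Dia and 23085 bases for regions higher in EDL, against 7269 bases for all. Called regions were also weaker: their median mean level stood at percentile 28.6 of all shared regions for Dia and 34.1 for EDL.

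**Figure D2:**
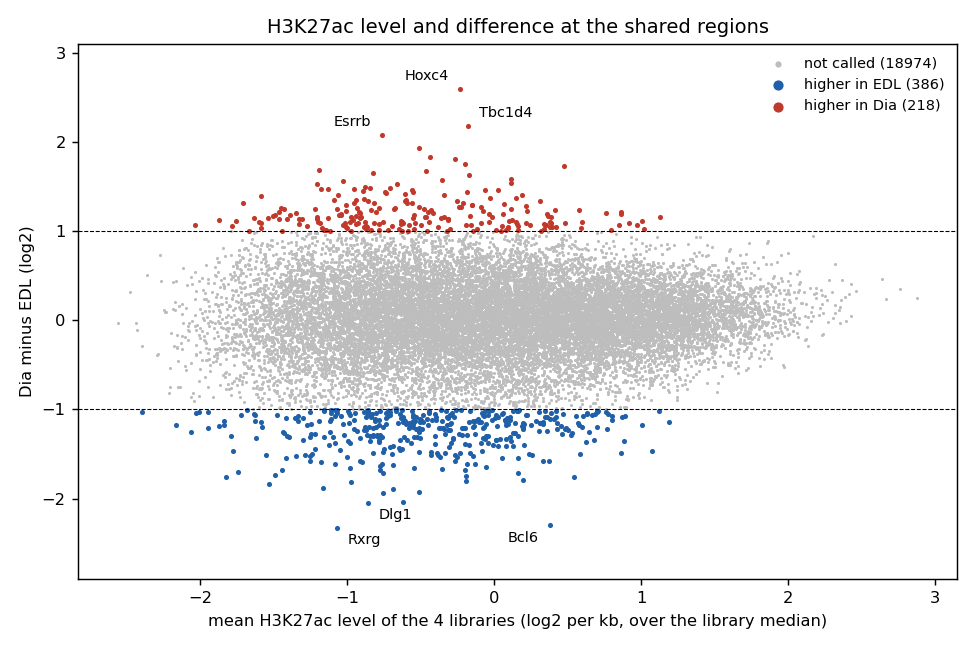
Difference between Dia and EDL (y axis, log2) against the mean H3K27ac level of the 4 libraries (x axis, log2 per kb over the library median) for the 19578 shared regions. Red points are the 218 regions called higher in Dia and blue points the 386 called higher in EDL. The dashed lines mark 2-fold, and the called regions lie mostly at middle and low levels.

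Differences between muscles were taken between means of 2 libraries and differences between replicates between single libraries, so the 2 kinds are not directly comparable. The median absolute difference was 0.259 between the muscle means, 0.187 between the Dia replicates and 0.156 between the EDL replicates. The 90th percentiles were 0.707, 0.522 and 0.439. Replicates of Dia differed over 2-fold at 151 regions and replicates of EDL at 34. Sequencing depth was 19.2 to 21.6 M tags in the 4 H3K27ac libraries and 19.6 and 19.9 M tags in the inputs, by the totals in the headers of the deposited tables. The study's own list of libraries gives the totals of the second Dia H3K27ac and the second Dia H3K4me2 library the other way round. Across the regions paired in both marks, the levels used here for the second Dia H3K27ac library had a Pearson correlation of 0.950 with the first Dia H3K27ac library, and of 0.744 and 0.742 with the H3K4me2 libraries of Dia. Without Dia replicate 2, 365 regions were called higher in Dia, against 218 with it.

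Peak width and input level moved with the calls. The Dia peak was the wider of the pair at 68.3% of the regions higher in Dia, at 20.2% of those higher in EDL and at 37.6% of all shared regions. Among the 10650 regions whose peaks were within 25% of the same width, 90 were called higher in Dia and 136 higher in EDL. Left uncorrected for width, the levels gave 964 calls for Dia and 983 for EDL. The input level, taken per kb in the same way, was higher in Dia by a median of 0.57 at regions called higher in Dia, and differed by -0.70 at regions called higher in EDL. Among the 14959 regions whose inputs were within 0.5, 96 were called higher in Dia and 130 higher in EDL. At the 12 largest differences in each direction, the input difference ran from -0.22 to 2.11 for Dia and from -1.55 to -0.18 for EDL. Levels over the own input gave 183 calls for Dia, 34 of them among the 218, and 154 for EDL, 64 of them among the 386. Under that measure, and without centring (338 for Dia and 279 for EDL), the excess of EDL calls over Dia calls was turned around. The input values are taken to be on the same log2 scale, set within each muscle's list together with its H3K27ac libraries. How far an input value follows those libraries was not tested, nor was the part of width and input in the calls.

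Genes of fast and slow fibers followed the muscles only in part. The fast fiber list held 16 genes, of which 14 had 23 shared regions. Their median difference was -0.25, against 0.02 for all shared regions (-0.094 without Dia replicate 1 and -0.49 without Dia replicate 2). Both EDL libraries were on top at 13 regions (56.5%) and both Dia libraries at 4 (17.4%), against 28% and 32.8% of all shared regions. Of all shared regions 1.11% were called higher in Dia and 1.97% higher in EDL. In this list none was called higher in Dia and 3 were called higher in EDL. One of these was in intron 1 of Actn3, the alpha-actinin of fast fibers (chr19:4874712-4879394), with levels of -0.60 and 0.09 in Dia and 0.83 and 1.00 in EDL. The others lay near Pvalb, the calcium buffer parvalbumin, at -1.06, and near Tpm1, alpha-tropomyosin, at -1.21. Genes of the fast list did not all lean to EDL. A region in intron 2 of Myh2, the myosin heavy chain of the fast oxidative IIa fibers, had 0.52 and 0.27 in Dia and -0.36 and -0.83 in EDL, just under the limit at a difference of 0.996. Tnni2, the fast troponin I, was almost level, with 1.60 and 1.54 in Dia and 1.61 and 1.52 in EDL. Tnnt3, the fast troponin T, had a peak named for it in the Dia list only, which overlapped an EDL peak too little to be paired, and Myh4, the myosin heavy chain of the fast glycolytic IIb fibers, had peaks in both lists that could not be paired.

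The slow fiber list held 18 genes, but only 9 had a shared region. The 22 regions had a median difference of 0.24. Both Dia libraries were on top at 11 (50%) and both EDL libraries at 4 (18.2%), against 32.8% and 28% of all shared regions. The call was at Casq2, the cardiac and slow calsequestrin that stores calcium in the sarcoplasmic reticulum, 448 bases inside the gene, with -0.27 and 0.51 in Dia and -1.08 and -1.01 in EDL. A region 24827 bases upstream of Atp2a2, the slow calcium pump, had 0.24 and 0.08 in Dia and -0.72 and -0.86 in EDL. Near Pln, phospholamban, which restrains that pump, regions differed by -0.70, -0.75 and 0.66. The direction of the list median did not hold over input, where it was -0.02. Of the other slow genes, 5 had a peak in the Dia list and none in the EDL list under that name, namely Myh7, Myh7b, Myl6b, Tnnt1 and Tnnc1. Over all nearest genes of either list, 8.35% had peaks in the Dia list only. The Myl6b and Tnnc1 peaks overlapped an EDL peak named for another gene. The 3 Dia peaks nearest to Myh7, the slow myosin heavy chain, overlapped no EDL peak, and their mean levels were -1.60, -1.002 and -1.49. The 4 others, Myl2, Myl3, Sln and Csrp3, had peaks in both lists that could not be paired.

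Fuel genes differed by pathway. Of 27 fatty acid uptake and oxidation genes, 19 had 39 shared regions, and their median difference was 0.46. Both Dia libraries were on top at 22 of these, or 56.4%, and both EDL libraries at 4, or 10.3%, against 32.8% and 28% of all shared regions. The median was 0.18 without Dia replicate 2 and 0.14 over input. Hadh, an enzyme of mitochondrial beta-oxidation, had 3 regions called higher in Dia, all in its introns. The region in intron 3 of 7 had 0.65 and 1.02 in Dia and -0.39 and -0.38 in EDL, with an input difference of -0.003. The called regions in intron 1 had folds of 2.53 and 2.38, and another Hadh region, 771 bases inside the gene, leaned to EDL at -0.50. At their lowest among the alternative runs, the intron 1 regions differed by 0.70 and 0.79, under the limit, and the intron 3 region by 1.04. Lower differences with libraries apart were seen at Acadvl, a dehydrogenase of long-chain fatty acids, with 1.30 and 1.55 in Dia and 0.70 and 0.58 in EDL. Lpl, lipoprotein lipase, had 1.96 and 1.92 in Dia and 1.46 and 1.13 in EDL at a region 1203 bases inside the gene. Ucp3 was the only call of the list in the other direction.

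Glycolysis and glycogen genes leaned to EDL. Of 26 genes, 18 had 37 shared regions with a median difference of -0.23. Both EDL libraries were on top at 19 (51.4%) and both Dia libraries at 5 (13.5%), against 28% and 32.8% of all shared regions. The 3 calls were all higher in EDL, where 1.97% of all shared regions were called. At Slc16a3, the lactate exporter MCT4, a region in intron 1 (chr11:120948138-120953924) had -0.03 and 0.27 in Dia and 1.55 and 1.67 in EDL, while its input differed by 0.44 in the opposite direction. The EDL peak there was 11236 bases wide and the Dia peak 5786. The other calls lay near Phka1, a subunit of phosphorylase kinase, at -1.28, and Ppp1r3c, a glycogen targeting subunit of protein phosphatase 1, at -1.01. A region 7880 bases upstream of Slc2a4, the insulin-responsive glucose transporter, went the other way, with -0.08 and -0.08 in Dia and -0.75 and -0.91 in EDL. A region 447 bases inside Slc2a4 differed by 0.22.

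For genes of mitochondrial respiration, the 37 regions of 24 genes, of 25 listed, had a median difference of -0.03, which ran from -0.14 without EDL replicate 2 to 0.059 without EDL replicate 1. Both Dia libraries were on top at 8 regions (21.6%) and both EDL libraries at 13 (35.1%), against 32.8% and 28% of all shared regions. There was a call at Mb, myoglobin, 13900 bases from its start at 1.02, and 1 in the other direction near Idh3a at -1.06. The regulators of oxidative metabolism spread widest. The 60 regions of 19 genes, of 20 listed, had a median of 0.03. Of all shared regions 1.11% were called higher in Dia and 1.97% higher in EDL, and this list had 3 calls in each direction. Those higher in Dia were at Esrrb, Esrrg and Bdh1, a ketone body enzyme. The Esrrg region, 697 bases inside the gene, had 0.26 and 0.47 in Dia and -0.73 and -1.35 in EDL, and a region 824 bases inside Esrrb had 1.01 and 0.72 in Dia and 0.24 and -0.50 in EDL. Those higher in EDL were near Rxrg, Nrip1 and Vegfa, the vascular growth factor, at -1.51. Over all their shared regions, the 8 of Vegfa had a median of -0.03 and the 2 of Nrip1 a median of -0.84. Ppargc1a, the gene of the coactivator PGC1α, had no call. Its promoter region differed by 0.04, with 1.102 and 0.05 in Dia and 1.09 and -0.02 in EDL, and a region in its intron 2 had 0.14 and 0.06 in Dia and 1.17 and 0.97 in EDL.

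Among 23 genes of calcium release and signaling, 20 had 56 shared regions, with a median of -0.07. There was 1 call for Dia and 3 for EDL, where 1.11% and 1.97% of all shared regions were called. Camk2b and Camk2g, subunits of the calmodulin-dependent kinase, were called higher in EDL at -1.20 and -1.08, and Jph1, which anchors the sarcoplasmic reticulum to the surface membrane, at -1.02. Rcan2, an inhibitor of calcineurin, was called higher in Dia at 1.19. Of 28 fiber type and myogenic transcription factors, 24 had 88 regions, with a median of -0.04. Sox6, a repressor of slow genes, had an intronic region with -0.32 and -0.30 in Dia and 0.72 and 0.80 in EDL. Eya4, a transcriptional coactivator, had 1 region called each way, at 1.02 and -1.19. None of the 67 regions of 25 muscle growth and atrophy genes, of 30 listed, was called. At the shares of all shared regions, few calls are expected in a list of this size. The largest in size were a region of Irs2 at 0.91 and a region of Mstn, myostatin, at -0.89. The 6 shared regions of Irs2 had a median of 0.02 and the 2 of Mstn a median of -0.80.

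**Figure D3:**
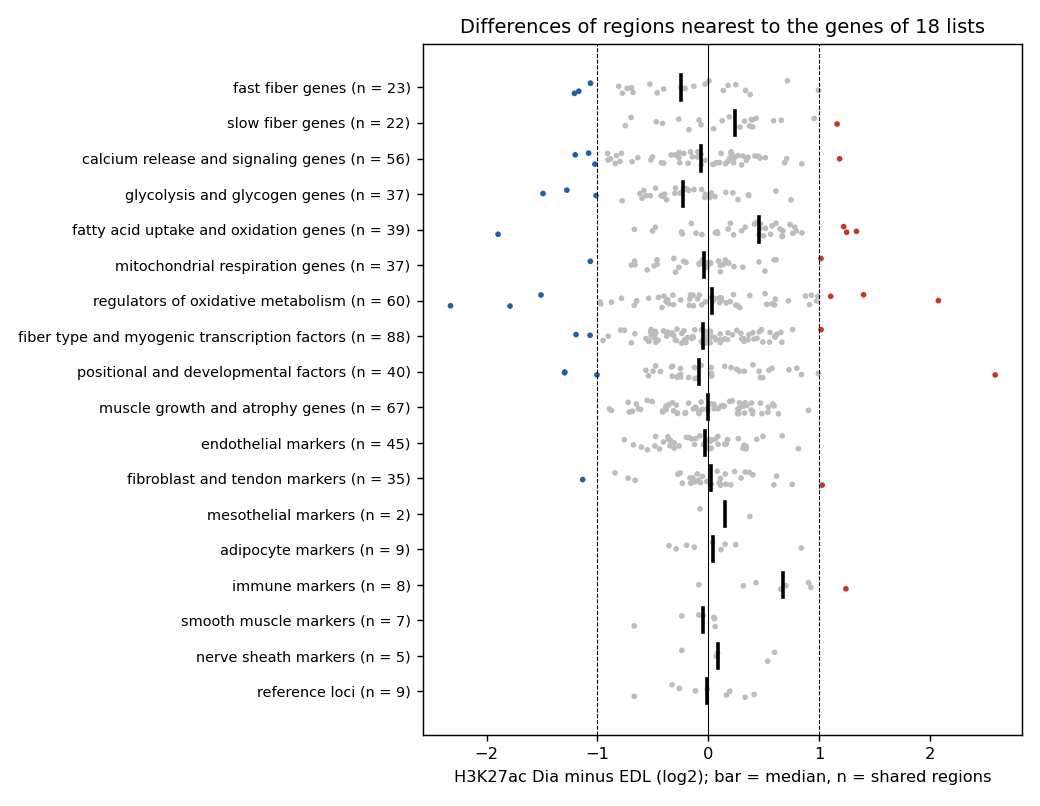
Difference between Dia and EDL (x axis, log2) at each shared region whose nearest gene is in 1 of 18 lists (y axis, n = shared regions). Red and blue points are regions called higher in Dia and in EDL, gray points were not called, and black bars are medians. The medians run from -0.25 for fast fiber genes to 0.68 for immune markers.

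Many positional and developmental factors had no shared region. Of 46 genes 18 had one, with a median difference of -0.08 over 40 regions. Besides Hoxc4, calls fell at the promoter of Hoxd8, with -0.38 and -0.28 in Dia and 0.85 and 0.50 in EDL, and at distant regions of En1 and Nr2f2, both at -1.30. A region 1382 bases upstream of Nr2f2 went the other way, at 0.995, just under the limit. The 8 shared regions of Nr2f2 had a median difference of -0.03. Of the rest, 12 genes had a peak in the EDL list only and 6 in the Dia list only. Over all 14870 nearest genes of either list, 10.3% had peaks in the EDL list only and 8.35% in the Dia list only. The former were Pitx1, a hindlimb factor, Lhx2, and the HOX genes Hoxa9, Hoxa10, Hoxa11, Hoxa13, Hoxc5, Hoxc9, Hoxc10, Hoxc11, Hoxd9 and Hoxd10. The latter were Hoxa7, Hoxb3, Tbx5, a forelimb factor, Pax3, Gata4 and Wt1. Among these, the peaks of Hoxa7, Hoxa9 and Hoxc5 overlapped a peak of the other list that could not be paired with them. The Hoxc10 peak of EDL reached levels of 1.53 and 1.49. The 6 Dia peaks in introns of Pax3, a factor of migrating muscle precursors, had mean levels from -0.68 to -0.09.

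Markers of other cell types differed unevenly. Immune markers leaned to Dia: 8 regions of 5 genes, of 12 listed, had a median difference of 0.68. Both Dia libraries were on top at 7 (87.5%), against 32.8% of all shared regions. Tyrobp, a myeloid signaling adaptor, had -0.23 and -0.45 in Dia and -1.19 and -1.35 in EDL at its promoter. A region 20186 bases upstream of it was called at 1.24. The median level of these regions was -0.98 in Dia and -1.58 in EDL, low in both. Of 12 mesothelial markers, 6 had a peak in the Dia list only (Upk1b, Wt1, Krt19, Lrrn4, Bnc1 and Gpm6a) and none in the EDL list only. Over all nearest genes, 8.35% had peaks in the Dia list only. The 2 markers with 1 shared region each, Msln and Krt8, differed by -0.07 and 0.38. Upk3b had peaks in both lists that could not be paired, and 3 markers had no peak in either list. The Dia peaks at Wt1 had mean levels of -0.74 and -1.11. Of all shared regions 1.11% were called higher in Dia and 1.97% higher in EDL. The 45 regions of endothelial markers had no call and a median of -0.03. Both EDL libraries were on top at 16 of them (35.6%) and both Dia libraries at 7 (15.6%), against 28% and 32.8% of all shared regions. The 35 regions of fibroblast and tendon markers had a call each way, near Col3a1 at 1.03 and in Dpt at -1.13, with a median of 0.03. Adipocyte, smooth muscle and nerve sheath markers had 9, 7 and 5 regions, with medians of 0.04, -0.05 and 0.08. None was called, and at the shares of all shared regions few calls are expected in lists this small. The part of these cells in the regions higher in Dia was not tested. Among reference loci, Acta1, Ckm, Actb and Ngdn had 9 shared regions, which differed by -0.67 to 0.41 with no call. Myh6, Myh3 and Myh8, myosins of heart and immature muscle, had no peak named for them in either list.

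The same regions were then looked at in other libraries. Soleus (Sol), a slow oxidative limb muscle, and Quad, a mostly fast limb muscle, had paired H3K27ac peaks at 13119 of the shared regions, from libraries that the Dia and EDL lists did not use. Of the regions higher in Dia, 86 could be paired, and 71 of these (82.6%) were higher in Sol than in Quad, with a median difference of 0.33. Of the regions higher in EDL, 167 could be paired, and 141 (84.4%) were lower in Sol than in Quad, with a median of -0.62. Among all paired regions 56.2% were higher in Sol, with a median of 0.06. Across the 13119 regions Spearman's rank correlation was 0.260, a description, since the regions share the same libraries.

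Many differences were nonetheless small in Sol and Quad. A difference of over 2-fold in the same direction was seen at 17 of the 86 regions higher in Dia and 46 of the 167 higher in EDL, and a difference within 0.5 at 51 and 62. The Actn3 region had -1.01 and -1.04 in Sol and 1.07 and 1.06 in Quad, a gap wider than between Dia and EDL. The Slc16a3 region had -0.65 and -0.58 in Sol and 1.13 and 1.23 in Quad. At Cdc14b, Sol had -1.52 and -1.38 and Quad 0.10 and 0.21. At Bcl6, in contrast, Sol had 0.36 and 0.21 and Quad 0.59 and 0.51. The Nrip1 region differed by -0.005 between Sol and Quad. The Hoxd8 promoter went the other way, at 0.24 and 0.31 in Sol and -0.74 and -0.75 in Quad. The comparison leaves out Hoxc4, Tbc1d4, Esrrb and Rxrg, where no pair of Sol and Quad peaks met the overlap rule.

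Dimethylation of H3 at lysine 4 (H3K4me2), which marks promoters and enhancers whether or not they are active, could be paired in Dia and EDL at 7312 of the shared regions. It was higher in Dia at 53 of 60 paired regions with higher H3K27ac in Dia (88.3%), with a median of 0.40. It was lower in Dia at 70 of 79 paired regions with higher H3K27ac in EDL (88.6%), with a median of -0.49. Among all paired regions 51.7% were higher in Dia. The differences were smaller than those of H3K27ac: 6 and 8 of the called regions differed over 2-fold in H3K4me2 in the same direction. At the Itga11 region 12652 bases upstream H3K4me2 differed by 1.06, and at the Ncoa1 region 41689 bases upstream by -1.25. At Slc16a3 it differed by 0.14 and at Esrrg by -0.04, although H3K27ac differed by -1.49 and 1.40 there. Only 27.5% of the regions higher in Dia and 20.5% of those higher in EDL could be paired in H3K4me2, against 37.3% of all.

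**Figure D4:**
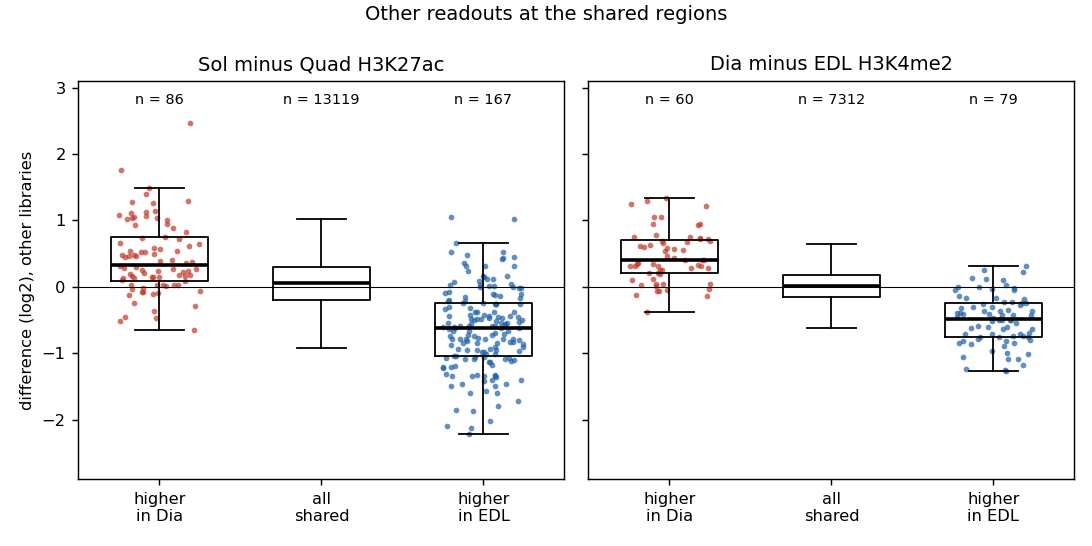
Difference (y axis, log2) between Sol and Quad in H3K27ac (left) and between Dia and EDL in H3K4me2 (right) at regions called higher in Dia, all shared regions and regions called higher in EDL (n = regions that could be paired). Boxes show the median and quartiles, whiskers reach up to 1.5 box lengths, and points are single called regions. The medians are 0.33, 0.06 and -0.62 on the left and 0.40, 0.01 and -0.49 on the right.

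Regions that changed in Quad after wheel running (Ex) or with muscle-specific overexpression of PGC1α (mTg) were compared with the shared regions, counting any overlap of at least 1 base. Regions that lost acetylation in Ex covered 902 shared regions, whose median difference was -0.37, and both EDL libraries were on top at 500 (55.4%) and both Dia libraries at 95 (10.5%). They included 111 of the 386 regions higher in EDL (28.8%), among them those near Dlg1, Ucp3 and Slc25a30, and 1 of the 218 higher in Dia, against 4.61% of all shared regions. Regions that gained acetylation in mTg covered 643 shared regions with a median of 0.16. They included 24 of the regions higher in Dia (11.01%), with those near Tbc1d4, Dhrs4, Lrg1 and Dtnbp1, and 4 of those higher in EDL (1.04%), against 3.28% of all. Regions that lost acetylation in mTg included 23 of the regions higher in EDL (5.96%), with the Rxrg region, and 0 of the 218 higher in Dia, which allows a share of up to 1.38%. They made up 0.736% of all. Regions that gained acetylation in Ex covered only 38 shared regions, with a median of 0.24.

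**Figure D5:**
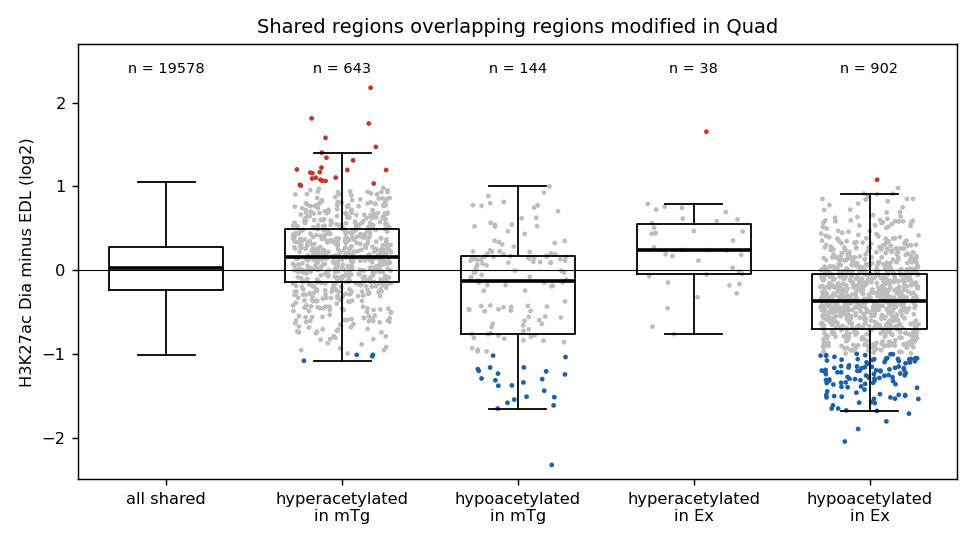
Difference between Dia and EDL in H3K27ac (y axis, log2) at all shared regions and at those overlapping regions that gained (hyperacetylated) or lost (hypoacetylated) H3K27ac in Quad of mTg or Ex mice (n = shared regions). Boxes show the median and quartiles, whiskers reach up to 1.5 box lengths, and red and blue points were called higher in Dia and in EDL. The medians are 0.02 for all, then 0.16, -0.13, 0.24 and -0.37 from left to right.

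Open chromatin of Quad covered 81.1% of the shared regions, 76.9% of the regions higher in EDL and 45.4% of those higher in Dia. No ATAC-seq of Dia or EDL was used here, so the lower share for Dia was measured in another limb muscle. MED1, a subunit of the Mediator coactivator complex, was bound at 6.11% of shared regions in Dia and 1.65% in EDL, from 1 library each. It overlapped 0 of the 218 regions higher in Dia in either muscle, which allows a share of up to 1.38%, and 2 of the 386 higher in EDL (0.518%) in each.

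Short words bound by muscle factors were counted on both strands in windows of 1000 bases at the centre of the stretch shared by the peaks. The MEF2 word was in 5.50% of the windows higher in Dia, 8.29% of those higher in EDL and 3.88% of all. The nuclear receptor half-site AGGTCA was in 59.2%, 59.8% and 48.6%, and the longer estrogen-related receptor word TCAAGGTCA, which contains it, in 3.21%, 3.63% and 2.64%. The E-box CAGCTG was in 51.4%, 56.5% and 47.2%, the PITX word TAATCC in 30.3%, 35.0% and 26.5%, and the AP-1 word TGACTCA in 21.1%, 21.8% and 17.6%. The NFAT core TGGAAA was in 66.1%, 61.4% and 58.8%, and the MEF3 word TCAGGTT in 17.0%, 16.6% and 13.8%. The TEAD word CATTCC was in 42.2%, 42.5% and 41.3%, the T-box word AGGTGTGA in 3.21%, 4.40% and 3.39%, and the HOX word TTTATGG in 9.17%, 11.7% and 9.97%. For T-box and HOX words the share was below all regions in windows higher in Dia and above in those higher in EDL. For each of the other words, TEAD included, it was above all regions in both directions, by differing amounts. Some shares rest on few windows. The estrogen-related receptor word was in 7 of 218 windows higher in Dia and 14 of 386 higher in EDL. The T-box word was in 7 and 17 of them. Whether any share differed from that of all regions was not tested. The median GC content was 48.2% and 47.3% in called windows and 50.9% in all.

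Pairs just inside the pairing rule were called more often than shared regions as a whole. The 1339 pairs with 50 to 55% overlap had a median difference of 0.02 and held 83 of the calls, or 6.199% against 3.09% of all shared regions. The 1205 overlapping pairs at 45 to 50%, outside the rule, had a median of 0.05, and 72 of them, or 5.98%, would have met the rule for calls. Of the peaks left out, 6926 in Dia and 10610 in EDL overlapped no peak of the other muscle, and 6602 and 5562 overlapped one too little or less than a better match. The nearest gene was the same in both lists at 98.3% of the shared regions.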

How the data were processed

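H3K27ac was measured by ChIP-seq in duplicate in each muscle. The authors aligned reads to mm10 with Bowtie (1.2 in the submitters' processing notes, with only uniquely mapped reads kept), made HOMER tag directories, found histone-style peaks against input over replicates, and kept peaks at least 2-fold over input at a false discovery rate of 0.05. The deposited peak tables hold, for each library, a log2 tag value, which is taken from the values to be the regularized log2 scale that the authors' run of DESeq2 gives within that muscle's own list. Values of different muscles were therefore normalized apart. The tables also hold the authors' log2 fold change over input and adjusted p-value, pooled over replicates, used only as filters in alternatives, and the lists of MED1 peaks carry a signal of scaled tag coverage, of which only the deposited intervals were used. Columns of the authors' own comparisons between conditions were not used.

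Peaks were paired at 50% reciprocal overlap, levels were divided by width, and each library was centred on its median. The rule for calls was a mean difference over 1 (log2) and no overlap of replicates, with no test. Named regions were the 12 largest calls in each direction, 1 per nearest gene, up to 6 calls in each of 18 gene lists or the largest difference where there was none, reference loci and the genes with most calls. Others were chosen after their values were seen, namely promoter regions and further regions of named genes, members of lists under the limit, and regions named for their values in Sol, Quad or H3K4me2. The regions, gene lists and words were chosen with earlier results of these data known. Samples were grouped by their titles, where the label spells diaphragm as Diaphram, and replicate numbers were not used to pair libraries, since the labels tie a number to no shared batch or day. Nearest genes and annotations are those of the authors' tables. Sequences came from the RefSeq GRCm38.p6 genome after all 19578 regions fell inside its chromosomes and 200 of 200 promoter entries matched it. The sequence of 1 region is not reported here. Upper limits for a count of 0 use 3 counts and cover counting error only. Code was tested on simulated data. Python 3.11.15, pandas 2.3.3 and numpy 2.4.6 were used.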

Additional observations from a re-analysis of the deposited data

How the results depend on the processing

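With differences taken within replicate number (a replicate block, added after seeing the data), the counts were again 218 and 386, and the mean differences are the same by construction. The difference of replicate 1 minus 2 had a Pearson correlation across regions of 0.452 between Dia and EDL, a hint from the data that libraries of 1 number vary together. Both within-number differences were positive at 7990 regions and negative at 7155. The counts of regions higher in Dia and in EDL (218 and 386) were 74 and 95 at 80% reciprocal overlap and for Dia 369 at 30%. They were 964 and 983 without the width correction, 122 and 243 without the lowest 25% of regions, 100 and 186 with the authors' adjusted p under 0.001 in both lists, 93 and 132 with widths within 25%, and 1503 and 1583 with a 1.5-fold limit. Without centring Dia had 338. Over input, chosen after seeing the data, EDL had 154. Quantile normalization gave 224 and 385, and 4-fold over input in both lists 180 and 317. Without 1 library the counts ran from 238 to 365 for Dia and from 427 to 495 for EDL. Stricter overlap, width and peak filters leave fewer regions by construction, and the cause of the other changes was not tested.

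The share of called regions with the same direction in Sol and Quad was 83.8%, and 88.9% at 80% overlap, where 45 regions were left. In H3K4me2 it was 88.5%. Of 52 called regions named above, 50 kept their sign under each alternative run. The call rule sets the libraries of the muscles apart, so runs without 1 library could not reverse a sign. Keeping the sign is also less than keeping the call: over input, 34 of the 218 and 64 of the 386 calls were kept. The exceptions, both over input, were Esrrb at -0.056 and Idh3a at 0.15.

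List medians moved as follows. At 80% overlap they were 0.11 for fibroblast and tendon markers, 0.81 for immune markers, 0.54 for nerve sheath markers and -0.32 for reference loci. Without the width correction they were -0.54 for fast fiber genes, -0.25 for calcium genes, -0.33 for glycolysis genes, 0.11 for mitochondrial genes, -0.20 for fiber type factors, 0.044 for positional factors, -0.22 for endothelial, 0.20 for fibroblast, -0.31 for mesothelial, 0.51 for adipocyte, 0.98 for immune and 0.50 for nerve sheath markers, and -0.26 for reference loci. Without centring they were 0.025 for calcium genes, -0.13 for glycolysis genes, 0.13 for oxidative regulators, 0.048 for fiber type factors, 0.12 for fibroblast and 0.18 for nerve sheath markers. Over input they were -0.016 for slow fiber genes, -0.15 for calcium genes, 0.14 for fatty acid genes, 0.10 for positional factors, 0.16 for fibroblast, -0.15 for mesothelial, 0.22 for smooth muscle and 0.20 for nerve sheath markers, and -0.17 for reference loci. Without 1 library the ranges were -0.49 to -0.094 for fast fiber genes, 0.13 to 0.34 for slow fiber genes, -0.33 to -0.17 for glycolysis genes, 0.18 to 0.64 for fatty acid genes, -0.092 to -0.032 for calcium genes, -0.013 to 0.046 for oxidative regulators, -0.16 to -0.052 for fiber type factors, -0.18 to 0.090 for positional factors, -0.15 to 0.0097 for endothelial, -0.033 to 0.066 for fibroblast, -0.20 to 0.082 for smooth muscle, 0.082 to 0.21 for nerve sheath, -0.016 to 0.32 for mesothelial, -0.13 to 0.21 for adipocyte and 0.58 to 0.77 for immune markers, -0.14 to 0.059 for mitochondrial genes, -0.087 to 0.072 for growth genes and -0.094 to 0.093 for reference loci.

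With 2 libraries per muscle, separate normalization and no test, small differences at weak regions cannot be told from library spread.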
